A study of Pinus tabuliformis with 21 samples.

Results

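Foliage of seedlings of the Chinese pine Pinus tabuliformis that had received UV-C for 7 d was compared with foliage of seedlings that had received no ultraviolet light. The comparison rests on 6 of the 21 RNA-seq libraries of the series: the 3 libraries whose labels name UV-C for 7 d, and the 3 control libraries sampled at 0 h. UV-C (230 to 270 nm, peaking at 254 nm) was added at 28 µW/cm2 to the fluorescent lamps of the greenhouse, and the seedlings were 2.5 years old. Libraries of UV-C for 1 d and 3 d (the same lamps) and of UV-B for 1 d, 3 d and 7 d (280 to 320 nm, peaking at 306 nm, 280 µW/cm2), 3 of each, are used below. They show where the 7 d state of UV-C differs, and contrasts among them choose gene models that are then read at 7 d. The control was taken at the start, so the contrast with it spans 7 d of time as well as the irradiation, and the effects of time and light cannot be told apart in it. The treatment protocol lists 20 seedlings per group, and the labels leave unsaid how many of them entered a library and whether replicates are different seedlings. The p-values thus take in the spread among these libraries, which may be technical.

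UV-C carries enough energy per photon to be absorbed directly by nucleic acids, where it joins neighbouring pyrimidines into dimers that block transcription and replication until they are repaired. It also gives rise to reactive oxygen species. Plants have a dedicated photoreceptor for UV-B, UVR8, whereas none dedicated to UV-C is established, and plants in the open receive UV-B but hardly any UV-C because the atmosphere removes it. Conifer needles are shielded by a thick cuticle and by phenolic compounds in the epidermis.

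The count table holds 84525 gene models, of which 32251 had at least 1 count in these 6 libraries and 18265 passed the filter on low counts and were tested. The tested gene models held between 99.77% and 99.79% of the counts of each of the 6 libraries. The files pair no identifier with a gene name, so no pathway, marker of a cell type or sign of RNA quality could be looked up, and the tissue label could not be checked against markers. Totals of counts ran from 7344271 to 8560163 in the UV-C 7 d libraries and from 7455114 to 8065146 in the control libraries. Replicates of UV-C at 7 d had a biological coefficient of variation of 19.8%, against 13.8% in the control, and the correlations of their log2 levels over genes were 0.961 to 0.976 and 0.975 to 0.983. UV-C 7 d replicate 2 was closer to the control than its mates were, with a mean correlation to the control libraries of 0.947 against 0.934 for replicate 1 and 0.927 for replicate 3. Among the libraries of other groups that enter the shared estimate of spread, replicate 3 of UV-C at 3 d was unlike its mates, and the coefficient of variation of that group was 41.1%.

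After 7 d of UV-C, 1162 gene models rose and 1121 fell relative to the control. The test was edgeR's quasi-likelihood test, two-sided, with Benjamini-Hochberg adjustment over all 18265 gene models and a threshold of 0.05. Together these were 12.5% of the gene models tested, with 6.36% higher and 6.14% lower. The risers moved further than the fallers: their median log2 fold change was 1.18, against -0.78 for the fallers and 0.02 for all gene models tested. Log2 fold changes are of UV-C 7 d over control throughout, and levels are CPM, counts divided by the TMM-scaled library size in units of 1e6 counts, which is not corrected for gene length. A count of called genes depended on the libraries and the fit used. It was 1041 without UV-C 7 d replicate 1 and 1366 without replicate 3. It was 1094, 965 and 1394 without control replicates 1, 2 and 3, and it was 4194 when these 6 libraries were fitted by themselves and 4353 with limma voom and group weights.

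**Figure D1:**
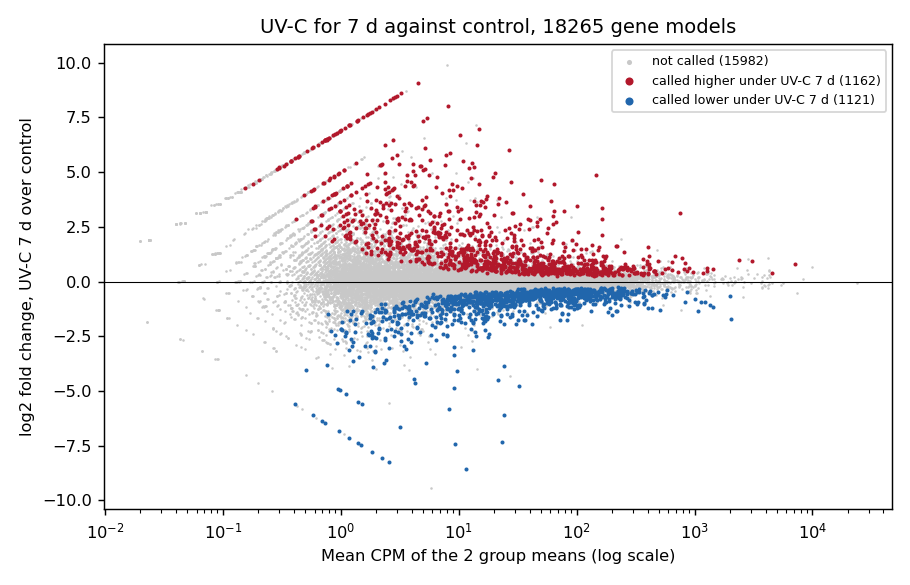
Log2 fold change of UV-C 7 d over control (vertical axis) against the mean CPM of the 2 group means (horizontal axis, log scale) for 18265 gene models. Red points are the 1162 called higher, blue points the 1121 called lower, and grey points the 15982 not called; the straight diagonal rows of points are gene models with 0 or very few counts in one group, whose fitted fold change depends on the small count that the fit adds.

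The difference between the directions lay in the large changes. Of the risers, 526 changed less than 2-fold, 249 changed 2- to 4-fold, 158 changed 4- to 8-fold and 229 changed 8-fold or more. Of the fallers, 735 changed less than 2-fold, 285 changed 2- to 4-fold, 57 changed 4- to 8-fold and 44 changed 8-fold or more. So 19.7% of the risers and 3.93% of the fallers reached 8-fold. Over all gene models tested, called or not, 439 were 8-fold or more higher and 82 were 8-fold or more lower. The imbalance was thus also present among all gene models tested. The filter on low counts took in all 7 groups, so a gene model near 0 in the control could enter through any UV group. Of the gene models tested, 295 had 0 counts in all 3 control libraries and 65 had 0 counts in all 3 UV-C 7 d libraries. The part of the filter in the imbalance was not tested. Most of the 229 strong risers, 186 of them, averaged under 1 CPM in the control, and 67 exceeded 10 CPM after UV-C. In these counts a gene model with 0 counts in a whole group was set to the limit given by 3 counts summed over that group.

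The strong risers took a small part of the RNA even after 7 d of UV-C. The 229 gene models took 0.516%, 0.278% and 0.583% of all counts in UV-C 7 d replicates 1, 2 and 3, against 0.036%, 0.0238% and 0.0524% in control replicates 1, 2 and 3. All 3 UV-C libraries lay above all 3 control libraries, and replicate 2 was the lowest of the UV-C libraries. Replicate 2 was the lowest UV-C 7 d library for 162 of the 229, and replicate 3 was the highest for 127. The median SD of log2-CPM among the UV-C 7 d libraries was 0.70 for strong risers, against 0.24 for all gene models tested (these SDs were 0.40 and 0.20 among the control libraries). Strong risers were also counted less, with a median of 2.53 CPM over the 6 libraries, against 10.4 CPM for all gene models tested, and the part of low counts in their spread was not tested. The genes were chosen by this contrast, so the shares describe them and test nothing.

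Nearly all called gene models separated library by library, which their choice by these same 6 libraries favours. All 3 UV-C 7 d values exceeded all 3 control values for 1148 of the 1162 risers, and all 3 lay below the control values for 1116 of the 1121 fallers. Over all gene models tested, 21.1% were separated upwards in this way and 20.4% downwards, so separation of 3 libraries from 3 was common outside the called genes too. At an unadjusted p under 0.05, edgeR's test held 2776 gene models higher and 2372 lower.

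The direction of the calls was checked in libraries that had not chosen them. When UV-C 7 d replicate 1 was left out, 548 of the gene models also tested with all libraries were called higher, and 547 of them were also above the control mean in the left-out library. The same held for 877 of 901 when replicate 2 was left out and for 683 of 690 when replicate 3 was left out. For gene models called lower, it held for 486 of 488, 739 of 748 and 668 of 671. Among all gene models tested, 51.7%, 51.0% and 51.0% were above the control mean in replicates 1, 2 and 3, and 47.9%, 48.4% and 48.6% were below it. The median log2 difference of the risers in the left-out library was 1.28, 0.93 and 0.95, and that of the fallers was -0.91, -0.68 and -0.69. In the fits that chose them, the medians were 1.42, 1.64 and 1.135 for risers and -0.835, -0.855 and -0.865 for fallers. The left-out values were thus smaller in size, except for the fallers in replicate 1. They come from log2-CPM with a prior count of 2, so the 2 measures are not fully alike. The same control libraries enter the choice and the reading of these values. When a control library was left out instead, 512 of 513, 423 of 423 and 639 of 641 risers were higher in the UV-C 7 d mean than in left-out control replicates 1, 2 and 3, and 578 of 578, 534 of 537 and 741 of 745 fallers were lower.

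How often a gene model was called depended on its level. Among gene models with a mean of 10 to 100 CPM over the 2 groups, 7.37% were higher and 8.99% lower, and among those of 100 to 1000 CPM, 9.33% were higher and 10.3% lower. Among the 1965 gene models under 1 CPM, 4.12% were higher and 0.713% lower. The precision differed as well: the median standard error of a log2 fold change was 1.00 under 1 CPM, 0.45 from 1 to 10 CPM, 0.19 from 10 to 100 CPM and 0.14 from 100 to 1000 CPM. Under 1 CPM the smallest fitted change that was called was 1.49 on the log2 scale, whereas from 100 to 1000 CPM it was 0.24. For called risers with 0 counts in the control, the limit set by 3 counts gave changes as low as 1.21. The class medians below use such limits. These smallest called changes hold for this fit, and no limit of detection was computed. Risers from 100 to 1000 CPM had a median log2 fold change of 0.55 and fallers one of -0.57, so in this class the directions differed little in size. These medians were 3.36 and -3.23 under 1 CPM, 2.45 and -1.49 from 1 to 10 CPM, and 0.785 and -0.703 from 10 to 100 CPM. At 1000 CPM or more they were 0.597 for 8 risers and -1.07 for 7 fallers, so the larger move of the risers was not seen in every class.

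**Figure D2:**
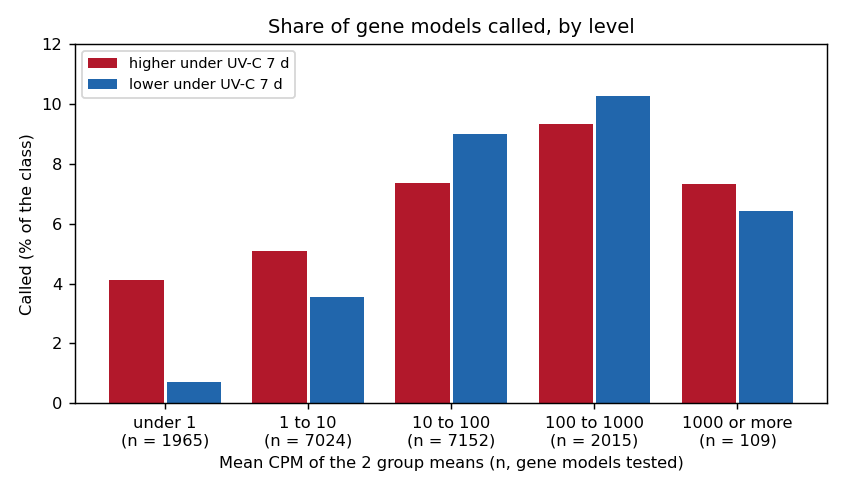
Percent of the gene models of each level class called higher (red, left bars) and lower (blue, right bars) in UV-C 7 d against control; classes are by the mean CPM of the 2 group means, with the number of gene models tested in brackets. The share called lower runs from 0.713% under 1 CPM to 10.3% from 100 to 1000 CPM, and the share called higher from 4.12% to 9.33%.

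Some gene models were counted under UV-C and not in the control. Of the 295 tested gene models with 0 counts in all 3 control libraries, 58 were called higher, and each of these 58 had counts in all 3 UV-C 7 d libraries. Their mean levels ran from 0.311 to 9.04 CPM with a median of 1.59 CPM, and 42 exceeded 1 CPM. Against a limit of 0.134 CPM, set by 3 counts summed over the control group, they were higher by at least 1.21 to 6.07 on the log2 scale, with a median bound of 3.56. They were not limited to UV-C at 7 d: 54 had counts in all 3 UV-C 3 d libraries, 50 in all 3 UV-B 7 d libraries and 27 in all 3 UV-C 1 d libraries. In the other direction, 65 tested gene models had 0 counts in all 3 UV-C 7 d libraries, and 11 of these were called lower. Over the whole table, with no filter, 326 gene models had counts in all 3 UV-C 7 d libraries and in no control library, 189 had the reverse, and 18438 had counts in all 6 libraries. The first set held a median of 10 counts over the 3 UV-C 7 d libraries and the second a median of 6 over the 3 control libraries, so for most of them detection was a matter of a few counts.

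The rise and the fall in counts were each carried by a limited number of gene models. Counts were concentrated in general too: the 100 most highly counted gene models of the control took 26.0% of its counts. How far this shapes the sums below was not tested. Summed over the 1162 risers, the gain was 45400 CPM, of which 59 gene models made 50% and the first 10 made 27.2%. Summed over the 1121 fallers, the loss was 41130 CPM, of which 93 gene models made 50% and the first 10 made 21.9%. The 10 risers with the largest gain averaged between 951 and 8942 CPM after UV-C, against 157 to 5197 CPM in the control, and their log2 fold changes were only 0.40 to 3.11. The 10 fallers with the largest loss averaged between 296 and 1541 CPM after UV-C, against 724 to 3119 CPM in the control, with log2 fold changes of -1.71 to -0.66. All 20 of these gene models had no overlap between the libraries of the 2 groups.

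Because the table holds no gene names, 4 gene models picked by rule are followed by identifier: the riser and the faller with the largest fold change among well counted gene models, and the riser and the faller with the largest change in CPM. They stand for the extremes of this contrast, not for the typical called gene model. Pine genomes are rich in gene families with closely related copies. How reads with more than 1 match were treated is not given in the sources used here, so the level of any single gene model is uncertain to that extent.

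The riser with the largest fold change was PITA_000002438-RA. It had 30.6, 13.7 and 45.0 CPM in UV-C 7 d replicates 1, 2 and 3, against 0.137, 0.136 and 0.389 CPM in control replicates 1, 2 and 3. The UV-C libraries were all far above the control libraries, which together held 5 counts, but they differed among themselves, with replicate 2 the lowest. The log2 fold change was 6.95 with a standard error of 1.61 (edgeR adjusted p = 0.0105). The adjusted p was 0.0524 without control replicate 2 and 0.23 with limma voom and group weights, and over 15 alternatives it ran from 5.58e-06 to 0.23. At 1 d of UV-C the gene model had 0.944, 0 and 0.388 CPM, and at 3 d it had 129, 209 and 1.04 CPM, so at 3 d replicate 3 stayed near the control level while its mates exceeded every 7 d library. The rise at 7 d over 1 d passed the test (log2 fold change 6.06, standard error 1.46, edgeR adjusted p = 0.0192). The difference of 7 d from 3 d did not (log2 fold change -1.93, standard error 0.97, edgeR adjusted p = 0.204). UV-B at 7 d gave 26.7, 77.3 and 30.4 CPM, which overlapped the UV-C 7 d values (log2 fold change of UV-C over UV-B -0.59, standard error 0.95, edgeR adjusted p = 0.765).

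The riser with the largest gain was PITA_000009596-RA, one of the most highly counted gene models of the foliage. It had 8609, 9118 and 9101 CPM in UV-C 7 d replicates 1, 2 and 3, against 5106, 4752 and 5733 CPM in control replicates 1, 2 and 3. The groups were well apart and the UV-C 7 d replicates close together, at 8942 ± 289 CPM, against 5197 ± 497 CPM in the control (SD, n = 3 each). The log2 fold change was 0.78 with a standard error of 0.22 (edgeR adjusted p = 0.0277), and leaving out any one of the 6 libraries put the adjusted p above the threshold, at 0.056 to 0.119, with log2 fold changes of 0.72 to 0.85. At 1 d and 3 d of UV-C its mean was 5065 ± 782 and 4990 ± 1220 CPM (SD, n = 3 each), near the control. The level at 7 d was higher than at 1 d (log2 fold change 0.82, edgeR adjusted p = 0.0317) and than at 3 d (log2 fold change 0.84, edgeR adjusted p = 0.028). After 7 d of UV-B it had 8225, 7383 and 6268 CPM, all below the UV-C 7 d values, but the difference did not pass the test (log2 fold change of UV-C over UV-B 0.29, standard error 0.22, edgeR adjusted p = 0.467).

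The faller with the largest fold change was PITA_000085805-RA, which was almost absent from the UV-C 7 d libraries. It had 0.12, 0.576 and 0.143 CPM in UV-C 7 d replicates 1, 2 and 3, against 44.4, 45.8 and 47.9 CPM in control replicates 1, 2 and 3. The 3 UV-C 7 d libraries held 6 counts together and the 3 control libraries 1030, and the log2 fold change was -7.32 with a standard error of 0.74 (edgeR adjusted p = 6.78e-05). The same near absence was seen at every duration of UV-C: the 3 libraries of 1 d held 1, 0 and 0 counts and those of 3 d held 2, 2 and 1. The UV-B 7 d libraries held 43.4, 45.2 and 58.8 CPM, close to the control, and the direct contrast of UV-C with UV-B at 7 d gave a log2 fold change of -7.42 with a standard error of 0.74 (edgeR adjusted p = 5.62e-05). At 1 d and 3 d of UV-B it varied widely between libraries, from 8.31 to 53.2 CPM and from 33.9 to 89.4 CPM. Thus every UV-C library of the series held at most 0.576 CPM of this gene model and every other library at least 8.31 CPM. Seedlings were assigned to the groups at random, per the labels' protocols, but which or how many seedlings stand behind a library is not stated, so an effect of the band and a difference between the seedlings sampled cannot be told apart for this gene model.

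The faller with the largest loss was PITA_000020926-RA. It had 991, 1133 and 738 CPM in UV-C 7 d replicates 1, 2 and 3, against 2918, 3064 and 3375 CPM in control replicates 1, 2 and 3. No UV-C 7 d library came near a control library, and the log2 fold change was -1.71 with a standard error of 0.41 (edgeR adjusted p = 0.0133). Without UV-C 7 d replicate 1 or 3 the adjusted p was 0.0534 or 0.0642, and over 15 alternatives it ran from 0.00035 to 0.0642. The mean was 1358 ± 552 CPM at 1 d of UV-C and 718 ± 80.2 CPM at 3 d (SD, n = 3 each), so the 7 d mean of 954 ± 200 CPM lay between them. Neither difference passed the test (edgeR adjusted p = 0.476 for 7 d against 1 d and 0.548 against 3 d). With UV-B for 7 d the gene model had 1182, 529 and 795 CPM, which overlapped UV-C at 7 d (edgeR adjusted p = 0.828).

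**Figure D3:**
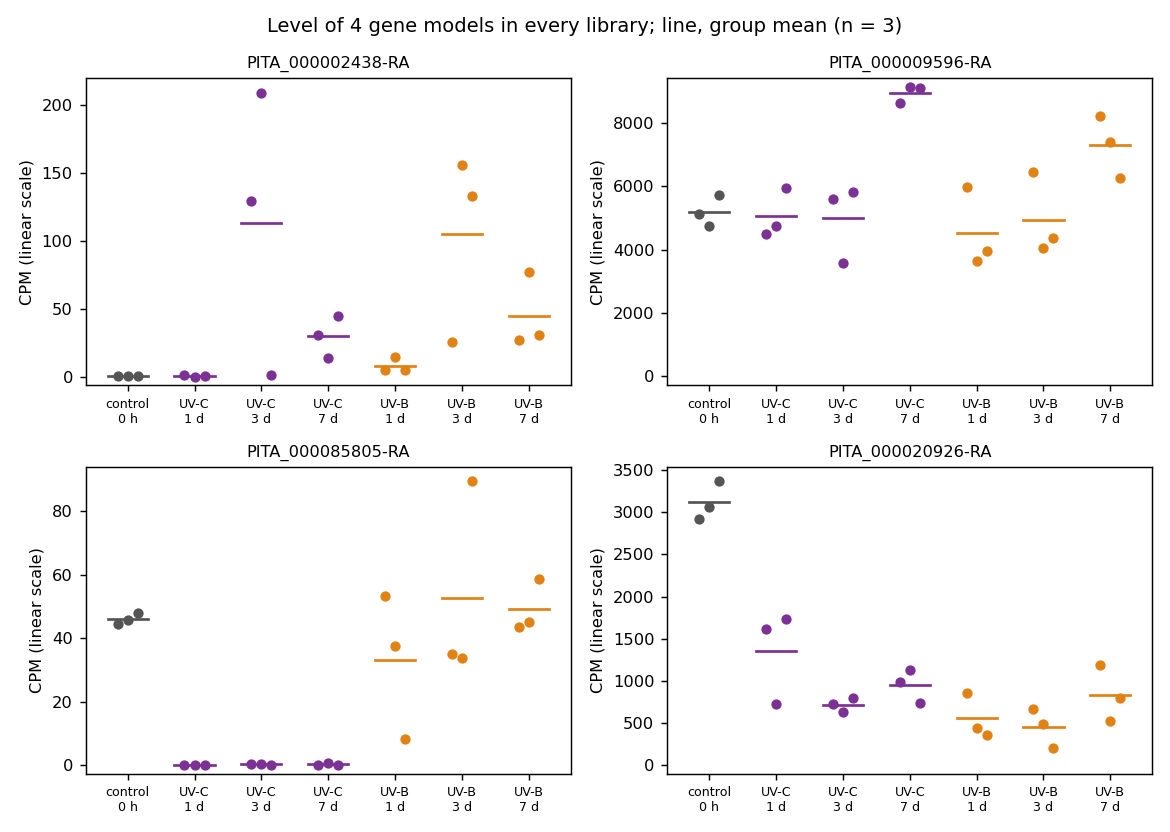
CPM (linear scale) of the 4 gene models in each of the 21 libraries, by group; each point is 1 library and each line the mean of 3. PITA_000085805-RA is at or under 0.576 CPM in all 9 UV-C libraries and at 8.31 CPM or more in the others, whereas PITA_000009596-RA lies at 8609 CPM or more in the UV-C 7 d libraries and at 8225 CPM or less in all others.

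Steep fallers that were well counted in the control were followed across the groups. Of the 44 gene models that fell 8-fold or more, 13 averaged over 10 CPM in the control. Summed over these 13, the libraries of UV-C at 7 d held 22.7, 12.2 and 13.8 CPM in replicates 1, 2 and 3, against 341, 457 and 382 CPM in the control. Libraries of UV-B at 7 d held 110, 130 and 124 CPM, above every UV-C 7 d library and below every control library. Much of the UV-B sum came from PITA_000085805-RA: without it the 12 others held 22.6, 11.7 and 13.7 CPM in the UV-C 7 d libraries, against 66.8, 85.3 and 65.3 CPM in the UV-B 7 d libraries and 297, 411 and 334 CPM in the control. Of the 13, 2 were called lower under UV-C than under UV-B at 7 d, beside 2.83% of all gene models tested. At 1 d and 3 d of UV-B the sums over the 13 ran from 321 to 643 CPM and from 126 to 178 CPM. At 3 d of UV-C the sums were 161, 161 and 38.5 CPM and at 1 d 197, 173 and 67.1 CPM, with replicate 3 the lowest at both times. Of the 13, 3 were called lower at 7 d than at 1 d and 1 lower than at 3 d, beside 4.56% and 4.63% of all gene models tested. The steep risers went the other way: the 67 with over 10 CPM after UV-C summed to 4591, 2531 and 5538 CPM at 7 d, against 340, 213 and 516 CPM in the control. They summed to 2228, 3681 and 1079 CPM at 1 d of UV-C and to 10860, 15400 and 4761 CPM at 3 d, and to 3750, 7299 and 4861 CPM at 7 d of UV-B. Of these 67, 17 were called higher and 2 lower at 7 d than at 1 d of UV-C, beside 3.59% and 4.56% of all gene models tested. Against 3 d of UV-C 4 were called lower, beside 4.63%, and against 7 d of UV-B 5 were called lower, beside 2.83%, with 0 higher in either. Members of both sets were chosen by the contrast with the control, so these sums are descriptions.

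The most highly counted transcripts of the foliage took a share of counts after 7 d of UV-C that overlapped the control, as they did after 7 d of UV-B, and a larger one than at 1 d and 3 d of UV-C in every library. The 100 gene models with the largest mean share of counts in the control took 25.0%, 26.6% and 27.3% of counts in UV-C 7 d replicates 1, 2 and 3, against 26.1%, 25.3% and 26.5% in control replicates 1, 2 and 3, and these ranges overlap. Ranking on the control favours a lower share in every other group. At 1 d of UV-C they took 22.5% ± 0.765 and at 3 d 19.6% ± 2.89 (SD, n = 3 each), and no library of either time reached a UV-C 7 d library. At 7 d of UV-B they took 25.1% ± 1.64 (SD, n = 3), which overlapped UV-C at 7 d. With 3 libraries on each side, the smallest p of an exact two-sided permutation test is 0.1. That smallest p was reached against 1 d and against 3 d, while the p was 0.7 against the control and 0.3 against UV-B at 7 d. Adjusted over 16 such tests, the values against 1 d and 3 d were 0.4, so none passed. Of the 100, 5 were called higher and 9 lower in UV-C 7 d against control, beside 6.36% and 6.14% of all gene models tested, with log2 fold changes from -1.71 to 1.06 and a median of 0.01, close to the 0.02 of all gene models tested. Of the 100 most highly counted gene models of UV-C at 7 d, 83 were among these 100.

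The evenness of the counts followed the same course. The effective number of gene models, the number of equally counted gene models that would give the same Shannon entropy, was 3281 ± 165 after 7 d of UV-C and 3385 ± 83 in the control (SD, n = 3 each). It was 3925 ± 160 at 1 d of UV-C and 4069 ± 204 at 3 d, above all 3 of the 7 d libraries, and 3502 ± 233 at 7 d of UV-B (SD, n = 3 each). The exact permutation p was 0.4 against the control, 0.2 against UV-B at 7 d and 0.1, the smallest possible, against either earlier time. Gene models with at least 1 count numbered 24394 ± 472 in UV-C 7 d libraries and 23968 ± 77.5 in control libraries (SD, n = 3 each), with an exact two-sided permutation p of 0.2.

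**Figure D4:**
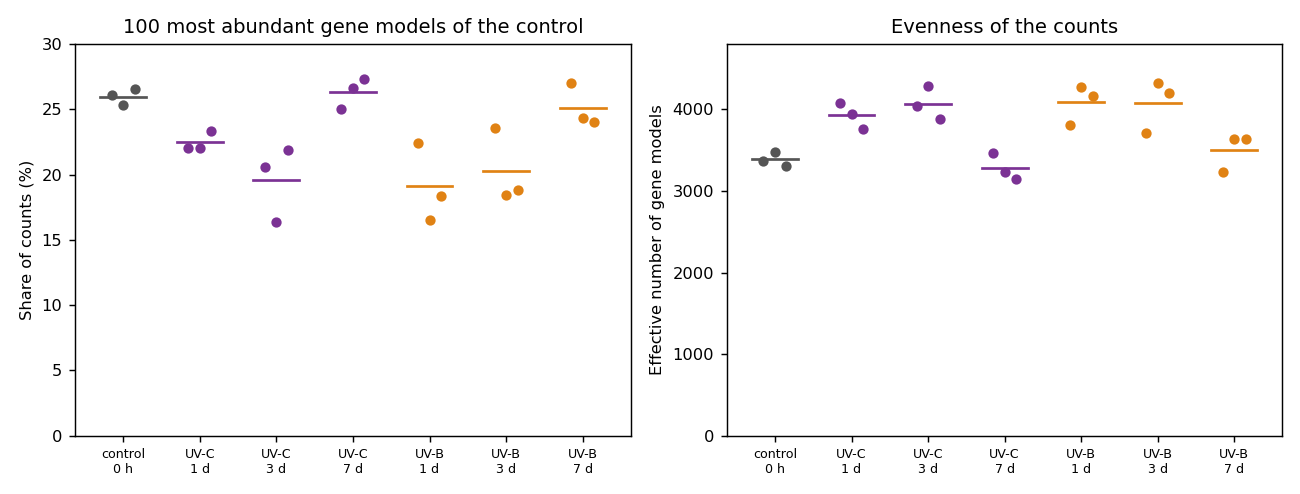
Left, share of counts (%) taken by the 100 most highly counted gene models of the control; right, effective number of gene models; both axes start at 0, each point is 1 library and each line the mean of 3. The UV-C 7 d libraries lie at 25.0% to 27.3% on the left, within reach of the control and above the UV-C 1 d and 3 d libraries.

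Direct contrasts with the other UV-C durations asked which gene models differed at 7 d without recourse to the control. Against 1 d of UV-C, 655 gene models were higher at 7 d (3.59% of those tested) and 832 lower (4.56%). The risers of the 7 d contrast with the control held 289 of the higher and 13 of the lower, and the fallers held 364 of the lower and 2 of the higher. Thus 24.9% of the risers were called higher, and 32.5% of the fallers lower, at 7 d than at 1 d. The UV-C 7 d libraries enter both contrasts, which favours this direction. The count of 1487 dropped to 325 when UV-C 1 d replicate 1 was left out and to 894 when replicate 2 was. Leaving out UV-C 7 d replicates 1, 2 and 3 in turn gave 504, 753 and 684.

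Against 3 d of UV-C, 714 gene models were higher at 7 d (3.91%) and 846 lower (4.63%), but this contrast rested on single libraries of 3 d. The count of 1560 became 3578 when UV-C 3 d replicate 3 was left out, 866 when replicate 1 was and 249 when replicate 2 was. Leaving out the UV-C 7 d libraries in turn gave 447, 329 and 816. In an edgeR fit of these 6 libraries alone 0 gene models were called, with 3519 at an unadjusted p under 0.05, against 2727 called by DESeq2's Wald test and 1029 by limma voom with group weights. Of the fallers of the 7 d contrast with the control, 277 were lower at 7 d than at 3 d and 8 were higher. Of the risers, 85 were higher and 30 lower. Their median log2 fold change of 7 d over 3 d was 0.05, so as a group the risers stood near their 3 d level, while the fallers had a median of -0.33. Both sets were chosen with the UV-C 7 d libraries, which favours risers higher and fallers lower at 7 d.

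The means along the UV-C series gave the same order. Of the 1121 fallers, 847 had their lowest group mean at 7 d, 223 at 3 d and 51 at 1 d. Of the 1162 risers, 581 had their highest group mean at 7 d, 480 at 3 d and 101 at 1 d. Choosing gene models at 7 d favours 7 d in both counts. In the UV-C libraries the median log2 difference of the fallers from the control mean ran from -0.36 to -0.21 at 1 d, from -0.51 to -0.33 at 3 d and from -0.82 to -0.74 at 7 d, without overlap between 7 d and the earlier times. For the risers these medians ran from 0.44 to 0.70, from 0.89 to 1.04 and from 0.93 to 1.21, so 3 d and 7 d overlapped.

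**Figure D5:**
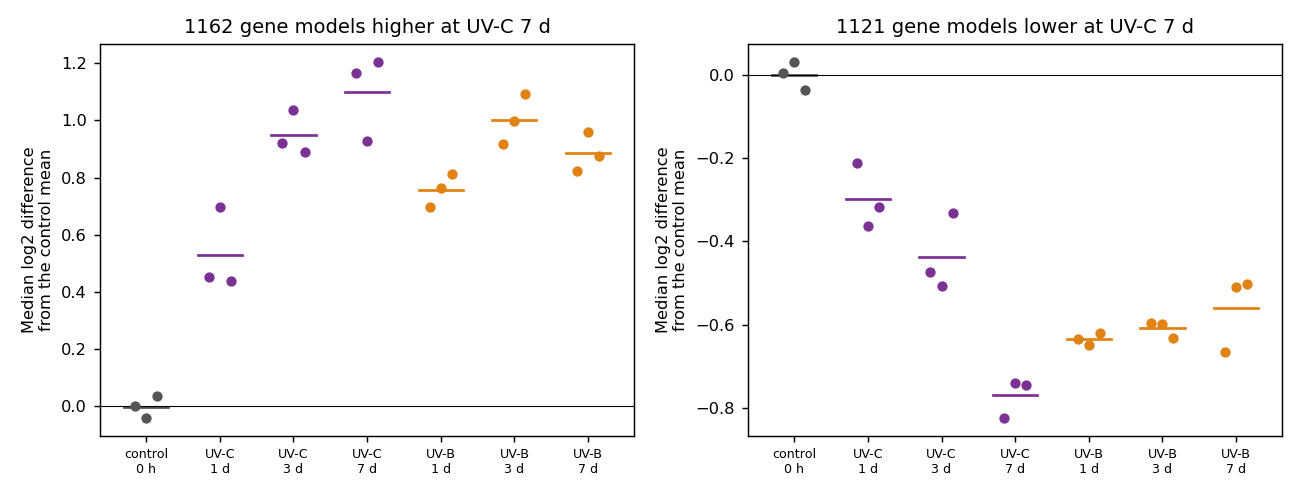
Median log2 difference from the control mean of the 1162 risers (left) and the 1121 fallers (right) of UV-C 7 d against control, in each of the 21 libraries; each point is 1 library and each line the mean of 3. The fallers lie at -0.82 to -0.74 in the UV-C 7 d libraries, below every library of UV-C at 1 d and 3 d; the genes were chosen by the 7 d contrast.

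UV-B for 7 d matched UV-C in duration but was given at another intensity. In the direct contrast, 595 gene models were higher under UV-C than under UV-B at 7 d (3.26%) and 516 lower (2.83%), with medians of 0.76 and -1.12 among the called. The risers of UV-C at 7 d held 112 of the higher and 36 of the lower, and the fallers held 109 of the lower and 16 of the higher. Thus 9.64% of the risers were called higher, and 9.72% of the fallers lower, under UV-C than under UV-B at 7 d. The UV-C 7 d libraries also enter the contrast that chose the risers and fallers, which favours this direction. The count of 1111 dropped to 549 when UV-B 7 d replicate 2 was left out and to 433 when replicate 3 was. Leaving out the UV-C 7 d libraries in turn gave 595, 471 and 524. The contrasts of UV-C and of UV-B with the control share the control libraries. Their own median log2 fold changes at 7 d were 1.18 for UV-C and 0.96 for UV-B over the risers, and -0.78 for UV-C and -0.57 for UV-B over the fallers, chosen on UV-C.

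Gene models called in contrasts between other groups were read in the contrast of UV-C at 7 d with the control. All 21 libraries shared the same filter and the same estimate of spread per gene. A call in one contrast is therefore not independent of a call in the other. Of 815 gene models called higher at 3 d than at 1 d of UV-C, 30.1% were called higher than the control at 7 d and 1.10% lower, beside 6.36% and 6.14% of all gene models tested, and their median log2 fold change at 7 d was 0.65. Of 324 called lower at 3 d than at 1 d, 15.1% were lower than the control at 7 d and 4.32% higher, with a median of -0.20. The interquartile range of these 324 was -0.552 to 0.115 and spanned 0. Gene models that rose between 1 d and 3 d of UV-C were thus often above the control at 7 d, and the interquartile range of their log2 fold changes was 0.25 to 2.31.

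The contrast of the bands at 1 d gave a second such list. Of 2036 gene models called lower under UV-C than under UV-B at 1 d, 13.3% were called higher than the control after 7 d of UV-C and 3.44% lower, with a median log2 fold change of 0.22. Of 1874 called higher under UV-C than under UV-B at 1 d, 20.6% were lower than the control after 7 d of UV-C and 4.32% higher, with a median of -0.18. At 7 d of UV-C, the medians of both lists lay on the side of the control on which UV-B had stood relative to UV-C at 1 d. Both interquartile ranges spanned 0, at -0.088 to 0.733 for the 2036 and -0.509 to 0.151 for the 1874. These shares are descriptions, with no test of the lists.

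A smaller set of calls held under 14 other fits. Of the 1162 risers and 1121 fallers, 309 and 369 were called in the same direction in all of these, which changed the scaling, filter, test, block or the libraries used, and no called gene model was called in the opposite direction in any of them. A required log2 fold change of 1 is not among the 14, and 188 of the 309 risers and 160 of the 369 fallers reached it. These 309 risers had a median log2 fold change of 1.40, and 62 of them rose 8-fold or more. The 369 fallers had a median of -0.93, and 13 fell 8-fold or more. Of the 309, 253 averaged over 10 CPM after UV-C, and of the 369, 336 averaged over 10 CPM in the control. They took 2.80%, 2.38% and 2.68% of counts (risers) in UV-C 7 d replicates 1, 2 and 3, against 1.38%, 1.37% and 1.41% in control replicates 1, 2 and 3. The fallers took 1.98%, 2.16% and 2.08% in UV-C 7 d replicates, against 3.88%, 3.92% and 3.70% in control replicates. The sets were chosen for calls in these same libraries, which fixes that the groups lie apart and the replicates close together, so the shares are a description.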

How the data were processed

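Foliage mRNA was selected with poly(A) beads. Adapters and poor reads were removed with Trimmomatic 0.36, according to the extract protocol of the labels. The submitters' processing notes name featureCounts 1.5.3, a read counter. The authors deposited raw counts per gene model for 21 libraries, not normalized. Not given in the sources used here are the aligner, the reference, the annotation, the strand setting and the treatment of multiply matching reads.

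Counts of all 21 libraries (7 groups of 3, from the sample labels) were fitted with edgeR 4.0.16 under R 4.3.3: filterByExpr, TMM factors, 1 mean per group, quasi-likelihood F-test, Benjamini-Hochberg over 18265 gene models. Each standard error came from the F statistic, as the log2 fold change over its square root. Log2-CPM used a prior count of 2. Single values per library were compared by exact permutation tests.

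The 4 named gene models were called without overlap of the libraries. The extremes of fold change also needed a mean of 2 log2-CPM and at least 4 counts in the lower group. Comparisons, rules and lists were chosen with earlier results of these data known. Gene lists drawn up for named genes could not be matched. Alternatives were other scaling (DESeq2 size factors, upper quartile), filters, DESeq2 1.42.0, limma 3.58.1 voom with group weights, fits of the compared groups by themselves, an added fold-change minimum (log2 of 1), the replicate number as a block, and leaving out each library. Replicates of UV-C 7 d and control differed by more than sampling noise: chi-square over degrees of freedom was 3.82 to 12.5.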

Additional observations from a re-analysis of the deposited data

Results flagged for a closer look

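Differences between groups that passed a test of the difference itself were the following. UV-C at 7 d differed from UV-C at 1 d in 1487 gene models, from UV-C at 3 d in 1560 and from UV-B at 7 d in 1111 (edgeR, adjusted p under 0.05). PITA_000085805-RA stood apart between the bands at 7 d, with a log2 fold change of UV-C over UV-B of -7.42. PITA_000002438-RA differed between durations, with a log2 fold change of 7 d over 1 d of UV-C of 6.06. PITA_000009596-RA was higher at 7 d than at 1 d of UV-C by 0.82 and than at 3 d by 0.84 on the log2 scale.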

How the results depend on the processing

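Of 56 values recomputed under other settings than leaving out a library, 37 stayed within 1.5 times the reported count or within 1 SD. For UV-C 7 d against control, 4353 gene models (2144 higher, 2209 lower) were called with limma voom and group weights, 4194 (2167 and 2027) when the 6 libraries were fitted by themselves, and 1022 (636 and 386) when a log2 fold change of 1 was also required. Without 1 library the count was 965 to 1658, with 426 to 905 higher and 491 to 753 lower. For 7 d against 1 d of UV-C it was 2248 with DESeq2, 950 in its own fit, 578 with the minimum fold change and 325 to 1622 without 1 library. For 7 d against 3 d of UV-C it was 2727 with DESeq2, 1029 with group weights, 0 in its own fit (edgeR; 3519 at an unadjusted p under 0.05), 513 with the minimum fold change and 249 to 3578 without 1 library. In the contrast with UV-B at 7 d it was 1730 with DESeq2, 1911 with group weights, 513 with the minimum fold change and 433 to 825 without 1 library. The causes were not tested, except that the minimum fold change can only make calls fewer. A missing library made calls fewer in most fits. Calls rose to 3578 without UV-C 3 d replicate 3 (7 d against 3 d) and to 1622 without UV-C 1 d replicate 3 (7 d against 1 d). Fallers outnumbered risers with group weights, upper quartile factors (1151 and 1088) and the filter on 1 CPM (1123 and 1109), and without any 1 control library, so neither direction clearly prevailed. The difference of UV-C 7 d and control in the share of the 100 most highly counted gene models was -0.126 to 1.02 percentage points without 1 library, and that in the effective number of gene models was -196 to -37.7. PITA_000002438-RA kept its call in 13 of 15 alternatives, PITA_000009596-RA in 9, PITA_000085805-RA in 15 and PITA_000020926-RA in 13, all with the same direction. Without UV-C 3 d replicate 3 in the shared spread, an alternative chosen after seeing the data, 2709 gene models were called against the control. With the replicate block it was 2221, and 1383, 1550 and 1017 in the contrasts with UV-C 1 d, UV-C 3 d and UV-B 7 d. Same-numbered UV-C 7 d and control libraries deviated together with correlations over genes of only -0.001 to 0.05. With 3 libraries per group such values cannot exclude a pairing. Between UV-C 7 d and UV-C 3 d the correlations of replicates 1, 2 and 3 with the same number were 0.182, -0.368 and -0.189. Their highest correlations with another number were 0.229, 0.392 and 0.215.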
